A study of Mus musculus with 10 samples.

Results

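Ribosome footprints of 9 genes of the mTOR pathway were followed through development of the mouse neocortex: Mtor, Rptor, Mlst8, Rictor, Akt1, Tsc1, Tsc2, Rheb and Rps6kb1. The genes were chosen by symbol for their place in the pathway, and all 9 were found among the 22373 genes of the count table and passed the filter that kept 13484 genes. Ribo-seq reads the stretches of mRNA that a ribosome shields from nuclease, so a gene's footprint count follows both how much of its mRNA is present and how densely ribosomes sit on it. No RNA-seq was analysed here, so these cannot be told apart. In bulk tissue, fewer cells of a type and less RNA per cell cannot be told apart either.

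The neocortex was dissected from wild-type CD-1 mice at embryonic days E12.5, E14, E15.5 and E17 and at birth (P0), with 2 libraries per stage and 10 in all. No library carried a mutation or a drug treatment, and every lysate was digested with RNase-T1 and RNase-A before 80S ribosomes were collected. Each library came from its own pooled lysate with both sexes present, so p-values measure the spread between these pools and not between single animals. The question the series poses is how translation changes while cortical neurons are born and mature.

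mTOR is a protein kinase that couples growth signals and nutrients to protein synthesis. It works in a complex with Raptor (mTORC1), which phosphorylates S6 kinase and the 4E-BP repressors of cap-dependent initiation, and in a complex with Rictor (mTORC2), which phosphorylates Akt. Growth factor receptors act through PI3K and Akt to inhibit the TSC1-TSC2 complex, which otherwise keeps the small GTPase Rheb, the direct activator of mTORC1, in its inactive form. Loss of TSC1 or TSC2 in people gives tuberous sclerosis, with malformations of the cortex, and the pathway governs the size, migration and dendrites of cortical neurons. All of this regulation is largely by phosphorylation and by binding of nucleotides and proteins, which footprint counts do not measure.

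The libraries held 7544404 to 36129988 counted footprints, and the 9 genes together took 0.0129% to 0.0274% of them. Single members had between 33 (Rictor, P0 replicate 1) and 3956 (Rheb, P0 replicate 2) footprints per library. Levels are given as CPM, the share of a library's counts scaled by TMM, a unit in which a gene may be compared across stages but not with another gene of different length. P0 replicate 1 was the shallowest library, and the P0 pair was the least alike. Over the 9215 genes averaging 100 counts or more, the SD of the log2 ratio of replicate 1 to replicate 2 was 0.79 at P0 and 0.455 at E12.5, against 0.209 to 0.264 at the other stages. The members shared this spread, with a largest log2 difference between replicates of 0.938 at P0 (Rheb) and 0.378 at E12.5 (Rptor), so results that end at P0 are given with and without its libraries where that matters. Markers of cortical neurons summed to 2475 to 2509 CPM at E12.5 and 10230 to 11570 CPM at P0, and none of the 10 was at 0 in any stage, as neocortex should show.

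The kinase itself, Mtor (ENSMUSG00000028991), was read at 7.09 and 8.41 CPM in the E12.5 libraries, then 8.88 and 8.62 (E14), 10.2 and 9.16 (E15.5), 9.05 and 9.72 (E17) and 13.9 and 10.6 (P0), replicate 1 first. Both P0 libraries lay above all 8 embryonic libraries, and the 3 middle stages lay close together. From E12.5 to P0 Mtor footprints rose 1.51-fold (95% interval 1.18 to 1.94, log2 change 0.60 ± 0.158 SE, adjusted p = 0.0105 by limma-voom with Benjamini-Hochberg adjustment over all genes kept). The rise was 0.48 on the log2 scale without E12.5 replicate 1, which ended the call (adjusted p = 0.0676), and 0.45 (adjusted p = 0.0138) without P0 replicate 1.

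Rptor (ENSMUSG00000025583) encodes Raptor, the scaffold that brings substrates to mTORC1. Its levels were 11.8 and 15.3 CPM at E12.5, then 13.9 and 13.6 (E14), 17.3 and 16.5 (E15.5), 17.4 and 15.8 (E17) and 22.0 and 16.8 (P0). The E15.5 and later libraries all exceeded the E12.5 and E14 libraries. The fitted difference between E12.5 and P0 was 1.38-fold (95% interval 1.06 to 1.80, log2 change 0.47 ± 0.166 SE, adjusted p = 0.0363). This call was the least secure of the 5 made over that span: it was lost without E12.5 replicate 1 (log2 change 0.29, adjusted p = 0.209), without P0 replicate 1 (0.31, adjusted p = 0.0837) and without any single E14, E15.5 or E17 library (adjusted p = 0.052 to 0.0574), and it was 0.73 without P0 replicate 2.

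Mlst8 (ENSMUSG00000024142) encodes the small beta-propeller subunit bound to the kinase domain in both complexes. It was read at 18.8 and 19.4 CPM at E12.5, then 20.6 and 16.8 (E14), 17.96 and 17.82 (E15.5), 16.5 and 15.0 (E17) and 18.4 and 19.3 (P0). The E17 pair lay below the other 8 libraries, which overlapped. The end points were nearly level, with a log2 difference of -0.01 (adjusted p = 0.924) and a 95% interval from 0.812-fold to 1.21-fold. The sign of so small a value was not stable, and with scaling by total counts it became 0.51.

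Rictor (ENSMUSG00000050310), which defines mTORC2, had the fewest footprints of the 9, between 33 and 168 per library. Its levels were 2.64 and 2.62 CPM at E12.5, then 2.47 and 2.79 (E14), 3.92 and 3.67 (E15.5), 4.03 and 3.79 (E17) and 3.59 and 4.01 (P0). All 6 libraries from E15.5 onward lay above all 4 earlier ones, with no overlap. Most of the change fell in a single step. Rictor rose 1.44-fold from E14 to E15.5 (95% interval 1.16 to 1.78, log2 change 0.52 ± 0.135 SE, adjusted p = 0.0174). Over the whole series it rose 1.48-fold (1.17 to 1.86, adjusted p = 0.00941). Without any single E14 or E15.5 library the step kept a log2 change of 0.44 to 0.61 but not the call (adjusted p = 0.0512 to 0.116), and DESeq2 did not call it (adjusted p = 0.189). Over the whole span the call was lost without E12.5 replicate 2 (adjusted p = 0.06) and without P0 replicate 2 (adjusted p = 0.0666), and also with DESeq2 (0.0998), sample quality weights (0.107) and the compared stages alone (0.0815).

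**Figure D1:**
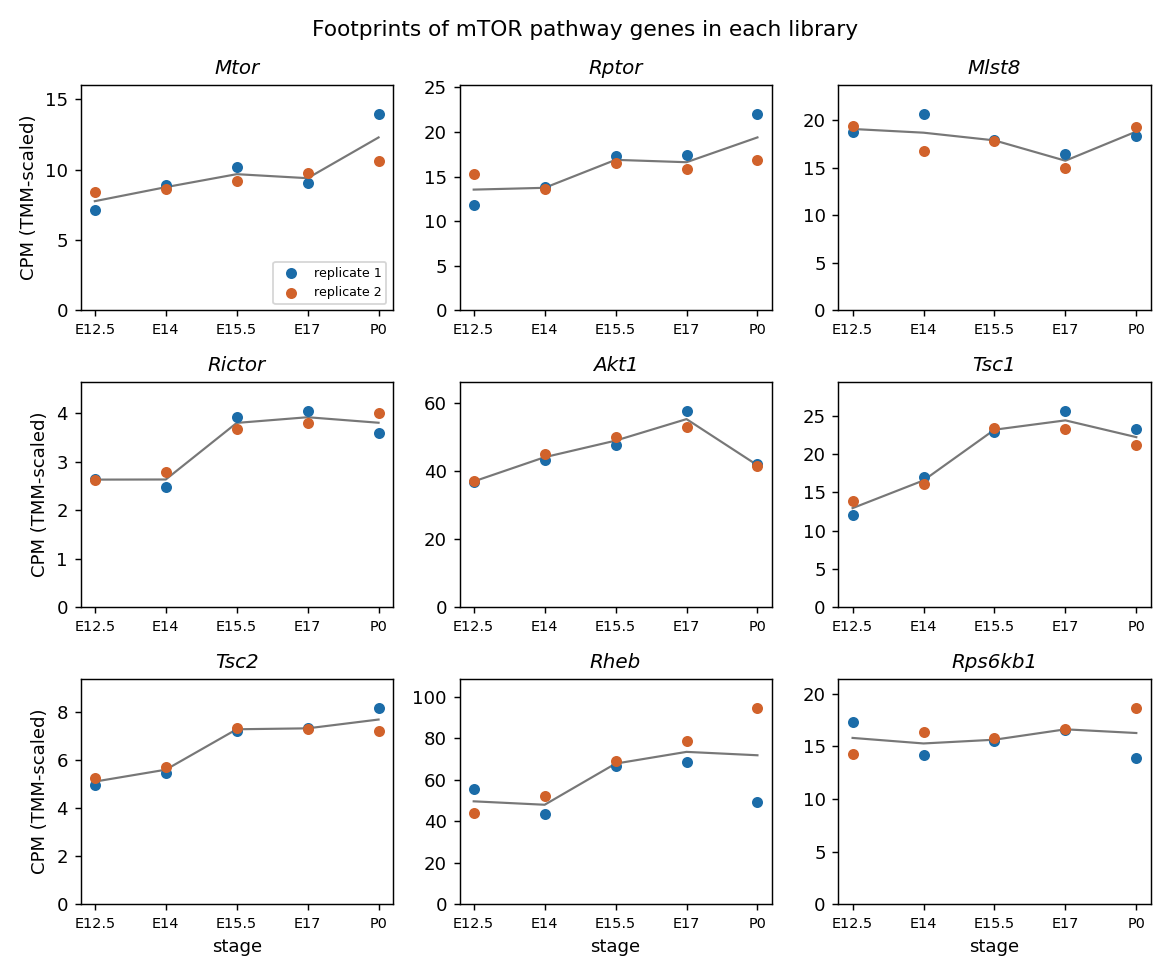
Footprint level of each of the 9 genes in CPM scaled by TMM (vertical axes, from 0, with their own range in each panel) at the 5 stages (horizontal axes). Points are single libraries, blue for replicate 1 and orange for replicate 2, and the grey line joins the mean of the 2. Rictor, Tsc1 and Tsc2 step up at E15.5, Akt1 peaks at E17, and the Rheb libraries stand far apart at P0 (49.3 and 94.4 CPM).

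Upstream of the complexes stands Akt1 (ENSMUSG00000001729), the kinase that inhibits TSC2 and is itself a substrate of mTORC2. It was read at 37.0 and 37.1 CPM at E12.5, then 43.3 and 45.0 (E14), 47.8 and 50.2 (E15.5), 57.6 and 53.1 (E17) and 42.1 and 41.5 (P0). Each embryonic stage lay above the one before without overlap, and both P0 libraries fell back below E14. The order by mean was E12.5, P0, E14, E15.5, E17. A fall at birth was not particular to Akt1. Of the 17 genes of receptors, PI3K and Akt in the longer list below, Akt1 among them, 6 were called lower from E17 to P0 and 2 higher (47.1% called, beside 20.5% of all genes). From E17 to P0 Akt1 fell to 0.755 of its level (95% interval 0.653 to 0.872, log2 change -0.41 ± 0.0909 SE, adjusted p = 0.018), while the end points of the series differed by 1.13-fold with an interval of 0.973 to 1.31 (adjusted p = 0.134). None of the 3 embryonic steps was called singly, their log2 changes being 0.25, 0.15 and 0.18 (adjusted p = 0.222, 0.233 and 0.264). The fall at birth was not called without E17 replicate 1 (log2 change -0.35, adjusted p = 0.146), without E17 replicate 2 (-0.47, adjusted p = 0.0546), or when libraries were scaled by total counts (-0.29, adjusted p = 0.0594).

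Over the whole span, the TSC genes held their calls in more of the alternative fits than the other members did. Tsc1 (ENSMUSG00000026812), which encodes hamartin, the partner that stabilises TSC2, was read at 12.1 and 13.9 CPM at E12.5, then 17.1 and 16.1 (E14), 23.0 and 23.4 (E15.5), 25.6 and 23.2 (E17) and 23.3 and 21.2 (P0). Its E12.5, E14 and E15.5 libraries formed a staircase without overlap, after which the 3 later stages overlapped. From E12.5 to P0 Tsc1 rose 1.70-fold (95% interval 1.40 to 2.04, log2 change 0.76 ± 0.118 SE, adjusted p = 0.00064). Its call over that span was kept in 18 of 18 alternatives, with log2 changes of 0.66 to 0.88 when single libraries were left out. From E14 to E15.5 it rose 1.40-fold (1.17 to 1.67, adjusted p = 0.0105), a call that was lost without E14 replicate 2 (adjusted p = 0.0746), E15.5 replicate 1 (0.0605) or E15.5 replicate 2 (0.0686).

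Tsc2 (ENSMUSG00000002496) encodes tuberin, the subunit with the GTPase-activating domain for Rheb. Its levels were 4.95 and 5.27 CPM at E12.5, then 5.48 and 5.74 (E14), 7.23 and 7.35 (E15.5), 7.34 and 7.32 (E17) and 8.16 and 7.23 (P0), from 75 to 303 footprints per library. Every library from E15.5 onward lay above every earlier one, and the 4 libraries of E15.5 and E17 lay between 7.23 and 7.35 CPM. Tsc2 rose 1.47-fold from E12.5 to P0 (95% interval 1.21 to 1.78, log2 change 0.55 ± 0.121 SE, adjusted p = 0.00396), a call kept in 17 of 18 alternatives. From E14 to E15.5 it rose 1.30-fold (1.08 to 1.55, adjusted p = 0.0321), but this call was lost without any single E12.5, E14, E15.5 or E17 library (adjusted p = 0.0541 to 0.14) and with DESeq2 (0.218).

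Rheb (ENSMUSG00000028945), the GTPase on which the brake acts, was read at 55.4 and 43.9 CPM at E12.5, then 43.8 and 52.2 (E14), 66.8 and 68.9 (E15.5), 68.4 and 78.5 (E17) and 49.3 and 94.4 (P0). The 4 libraries of E15.5 and E17 lay above the 4 of E12.5 and E14, but the P0 pair overlapped both groups, with 1 library at the level of the early stages and the other above all. The fitted difference from E12.5 to P0 was 1.43-fold with a 95% interval of 0.928 to 2.20 (log2 change 0.51 ± 0.271 SE, adjusted p = 0.13). It rested on which P0 library was kept: without P0 replicate 1 the log2 change was 0.95 (adjusted p = 0.000753), and without P0 replicate 2 it was 0.04 (adjusted p = 0.858). The step from E14 to E15.5 was 1.42-fold (0.926 to 2.16, adjusted p = 0.181). That step, which does not use the P0 libraries except through the shared spread, was called when either P0 library was left out singly (4 members in place of 3).

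Rps6kb1 (ENSMUSG00000020516) encodes S6K1, the kinase through which mTORC1 acts on ribosomal protein S6 and on initiation factors. It was read at 17.3 and 14.2 CPM at E12.5, then 14.2 and 16.4 (E14), 15.49 and 15.75 (E15.5), 16.5 and 16.7 (E17) and 13.9 and 18.6 (P0). All 10 libraries lay within the range of the P0 pair, 13.9 to 18.6 CPM. The difference from E12.5 to P0 was 1.06-fold with a 95% interval of 0.822 to 1.37 (log2 change 0.09, adjusted p = 0.657), and its sign turned without E12.5 replicate 2 (-0.07) or P0 replicate 2 (-0.13).

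Set side by side, the steps differed in how many of the 9 genes were called, a call being an adjusted p under 0.05 and a fold of at least 1.25. From E12.5 to E14, 0 of 9 were called by limma-voom, edgeR or DESeq2, which called 0.638%, 0.63% and 2.88% of all genes. By limma-voom 2 of the 9, Akt1 and Tsc1, had an unadjusted p under 0.05 there, as did 2137 of the 13484 genes tested. edgeR and DESeq2 also gave 2 of the 9. From E14 to E15.5, 3 of 9 were called (Rictor, Tsc1 and Tsc2), all higher, against 36.1% of all genes called and 16.5% called higher. The members' median log2 change at that step was 0.297, beside -0.009 for all genes tested. From E15.5 to E17, 0 of 9 were called by limma-voom, edgeR or DESeq2, which called 9.04%, 7.28% and 7.59% of all genes. At that step 0 of 9 had an unadjusted p under 0.05 in any of the fits, where limma-voom gave 3458 of the 13484 genes. From E17 to P0, 1 of 9 was called (Akt1, lower), against 20.5% called and 11.1% called lower.

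From E12.5 to P0, 5 of 9 were called higher (Mtor, Rptor, Rictor, Tsc1 and Tsc2) and 0 lower, against 62.1% of all genes called, 30.1% higher and 32% lower. The share of the members that changed was thus near that of all genes, while the fitted change was above 0 for 8 of 9, beside 6691 of the 13484 genes, with a median log2 change of 0.514 beside -0.013. Over the 5 stages together, a moderated F test called 4 of 9 (Tsc1, adjusted p = 0.000779; Akt1, 0.00448; Tsc2, 0.00837; Rictor, 0.00911), against 63.8% of all genes. Mtor (0.0707), Rptor (0.113), Rheb (0.166), Mlst8 (0.273) and Rps6kb1 (0.909) did not pass it. Without P0 replicate 2 the F test called 7 of 9, and 79.1% of all genes.

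A cruder reading, free of the fit, asked for which genes all 6 libraries of E15.5 and later lay above all 4 libraries of E12.5 and E14 in CPM. This held for 5 of 9 (Mtor, Rptor, Rictor, Tsc1 and Tsc2) where it held for 22.9% of all genes, and the reverse order held for 0 of 9 where it held for 24.2%. With total counts in place of TMM it held for 8 of 9 (39.5% of all genes), and without P0 replicate 1 for 6 (26.2%).

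These counts depended on single libraries, most of all at the adjacent steps. From E14 to E15.5, 0 members were called without E14 replicate 2, E15.5 replicate 1 or E15.5 replicate 2, 1 (Tsc1) without E14 replicate 1, and 4 (with Rheb) without either P0 library. Over all genes 22.5%, 20.3%, 20.8%, 24.5%, 46.6% and 48.2% were called in those fits, in the same order. From E17 to P0, 0 were called without E17 replicate 1 or E17 replicate 2, and without P0 replicate 2 there were 3, namely Mtor higher, and Akt1 and Rheb lower (4.11%, 8.91% and 33.7% of all genes). From E12.5 to P0, 3 were called without E12.5 replicate 1 (Rictor, Tsc1 and Tsc2), and 53.2% of all genes. Scaling mattered as well: with total counts in place of TMM the median gene moved up by 0.285 from E14 to E15.5 and by 0.514 from E12.5 to P0 on the log2 scale, and 7 and 9 members were then called, all higher. Over all genes that scaling called 44.9% and 66.4%, of which 32.7% and 47.8% of genes were higher. The changes given above are relative to the TMM scale, on which the median gene stands near 0.

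**Figure D2:**
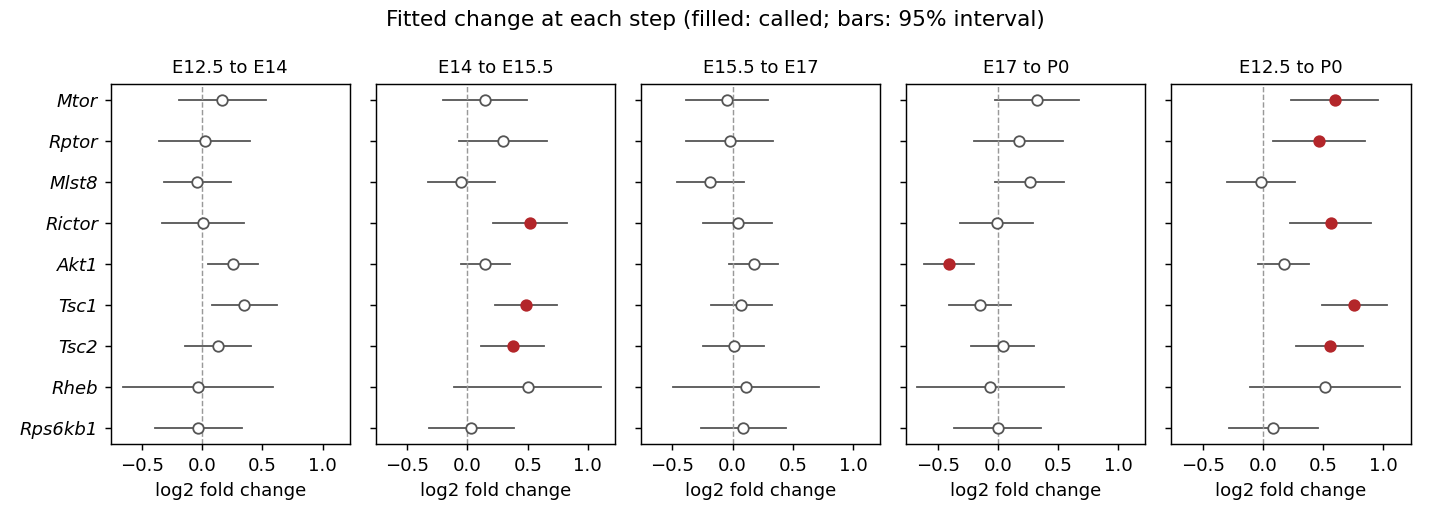
Fitted log2 fold change of each of the 9 genes (horizontal axes, later minus earlier stage) for the 4 adjacent steps and the whole span from E12.5 to P0. Circles are limma-voom estimates, bars are 95% intervals, and filled red circles are calls. Calls appear at E14 to E15.5 (3), at E17 to P0 (1, lower) and over the whole span (5), and the intervals of Rheb are the widest.

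Footprints of cell type markers moved between stages as well, which does not tell a change in cell numbers from a change in footprints per cell. Between E14 and E15.5, 8 of 10 cortical neuron markers rose and their sum went from 3396 to 3506 CPM to 7858 to 8210 CPM, while of 10 neural progenitor markers 8 fell and 1 rose, and their sums overlapped (2191 to 2268 CPM at E14 and 2163 to 2319 CPM at E15.5). Of 8 interneuron markers 6 rose. Of 7 endothelial, 9 red blood cell and 7 microglia markers, 6, 6 and 4 fell and 0 rose. Of 6 astrocyte and 5 oligodendrocyte lineage markers tested, 1 rose and 1 fell in each list. Over all genes 16.5% rose and 19.6% fell at this step. The 8 meningeal fibroblast markers all fell, from a sum of 297.8 to 299.2 CPM to 27.99 to 29.52 CPM, as did the 6 choroid plexus markers tested, from 1123 to 1132 CPM to 11.49 to 14.7 CPM. At P0 the red blood cell markers summed to 1439 to 1862 CPM against 7253 to 7260 CPM at E17, and of the 9, 5 fell and 1 rose. At that step 5 of 10 progenitor, 4 of 7 endothelial, 1 of 8 meningeal fibroblast and 1 of 7 microglia markers also fell. Risers were 3 of 10 cortical neuron, 1 of 8 interneuron, 3 of 6 astrocyte and 2 of 5 oligodendrocyte lineage markers tested. Over all genes 9.46% rose and 11.1% fell. The part of these shifts in the rise of Rictor, Tsc1 and Tsc2 at E15.5 and in the fall of Akt1 at P0 was not tested.

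Some members followed each other closely across the 10 libraries, which share stage, depth and the spread noted above. The highest Pearson correlations of log2 CPM were between the TSC partners Tsc1 and Tsc2 (0.951), between Rictor and Tsc2 (0.917) and between Mtor and Rptor (0.913). Rheb and Rps6kb1 were also alike (0.789), and the lowest value was between Mlst8 and Akt1 (-0.724). At E12.5 and at P0, where replicates differed most, the members split into the same pairs. Mtor and Rptor were higher in E12.5 replicate 2 and in P0 replicate 1, with log2 ratios of replicate 1 to replicate 2 of -0.246 and -0.378 at E12.5 and 0.387 and 0.387 at P0. Rheb and Rps6kb1 went the other way in both stages, with 0.338 and 0.282 at E12.5 and -0.938 and -0.417 at P0. Over the 9215 genes with the higher counts, the replicate differences of these stages were also opposed (r = -0.682 across genes, which are not independent replicates), so the reversal was not particular to the members. Differences between libraries of the same stage thus entered the correlation within each pair.

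Ratios of partners or related genes within a library do not depend on the scaling, and 5 were compared between the 4 libraries of E12.5 and E14 and the 6 libraries of E15.5, E17 and P0. An exact permutation test over the 210 assignments of libraries, two-sided, has a smallest possible p of 0.00952, and p-values were adjusted over the 5 ratios, of which 4 are given. The split at E15.5 follows the study, which drew on these same data. The test treats libraries as its units although the groups are made of whole stages, so its p-values are too small if libraries of a stage resemble each other. A ratio that climbs steadily also reaches a small p, so a call does not place a change at E15.5. Akt1 was compared with Akt2, the Akt best known from insulin signalling. The log2 ratio of their counts was -0.440 and -0.553 at E12.5, then -0.535 and -0.515 (E14), -0.325 and -0.387 (E15.5), -0.081 and 0.004 (E17) and 0.157 and 0.040 (P0). All 6 later libraries exceeded all 4 earlier ones, and the difference in mean was 0.412 (exact permutation p = 0.00952, the smallest this design can give, adjusted p = 0.0476). Akt2 itself was 52.3 CPM at E12.5, 57.0 CPM at E17 and 39.1 CPM at P0, a fall of 0.42 on the log2 scale over the whole span (adjusted p = 0.0108). The Akt2 call was lost without E12.5 replicate 2 (log2 change -0.36), with sample quality weights (adjusted p = 0.0973) and with the compared stages alone (0.09). With total counts the difference was 0.11, on the other side of 0.

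Rps6kb1 was compared with Rps6kb2, which encodes the related kinase S6K2. Their log2 ratio was 0.611 and 0.102 at E12.5, then 0.425 and 0.328 (E14), 0.815 and 0.565 (E15.5), 1.295 and 1.178 (E17) and 0.622 and 1.287 (P0). The groups overlapped slightly, E12.5 replicate 1 lying above E15.5 replicate 2, and the difference in mean was 0.594 (exact permutation p = 0.019, adjusted p = 0.0476). On the TMM scale Rps6kb1 was nearly level, while Rps6kb2 fell from 12.3 CPM at E12.5 to 8.32 CPM at P0. The Rps6kb2 log2 change was -0.61 (adjusted p = 0.0134), and was not called without E12.5 replicate 2 (-0.49) or P0 replicate 2 (-0.41). With total counts it was -0.09 (adjusted p = 0.675), while Rps6kb1 then rose by 0.62 (adjusted p = 0.0104) and was called. Sample quality weights (0.156) and the compared stages alone (0.0691) also lost the Rps6kb2 call. Leaving out a library raises the smallest p the test can give, and the adjusted p of these 2 ratios then ran from 0.0317 to 0.119, with differences of 0.361 to 0.470 for Akt1 to Akt2 and 0.505 to 0.675 for Rps6kb1 to Rps6kb2. Both were called without E15.5 replicate 2 or P0 replicate 1 but lost without each of the other 8 libraries.

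Neither of the other ratios given here was called. Tsc1 gained on Tsc2 by a log2 difference of 0.195 (exact permutation p = 0.0381, adjusted p = 0.0635), with 1.278 to 1.634 in the early libraries and 1.506 to 1.801 in the later ones. Rptor to Rictor, a comparison of the subunits that define the 2 complexes, differed by -0.174 (adjusted exact permutation p = 0.181), and all later libraries but P0 replicate 1 (2.596) lay between 2.054 and 2.158. Without P0 replicate 1 the 2 differences were 0.222 and -0.256, each with an adjusted exact permutation p of 0.0317.

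**Figure D3:**
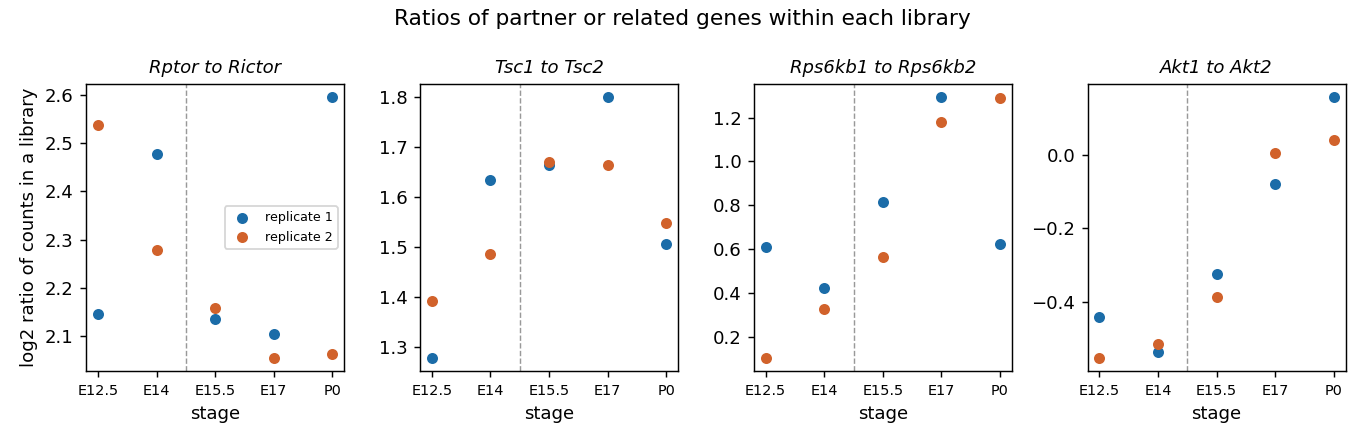
Log2 ratio of the counts of 2 genes within each library (vertical axes, own range in each panel) by stage, for 4 gene pairs. Points are single libraries, blue for replicate 1 and orange for replicate 2, and the dashed line separates the earlier 4 libraries from the later 6. Akt1 to Akt2 climbs without overlap across the line, and P0 replicate 1 stands apart in Rptor to Rictor.

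The members belong to a longer list of 88 pathway genes grouped by role, of which 87 were tested, the 9 members among them. From E14 to E15.5, 23 of the 87 rose and 7 fell (34.5% called, beside 36.1% of all genes), with a median log2 change of 0.198 beside -0.009. From E12.5 to P0, 32 rose and 21 fell (60.9%, beside 62.1%), with a median of 0.256 beside -0.013. From E12.5 to E14 no gene of the list was called by limma-voom or edgeR (0.638% and 0.63% of all genes), and DESeq2 called 1 (2.88% of all genes). By limma-voom 9 of the 87 had an unadjusted p under 0.05, beside 2137 of all 13484 genes. From E15.5 to E17, 1 rose and 5 fell (6.9%, beside 9.04% of all genes), and from E17 to P0, 8 rose and 11 fell (21.8%, beside 20.5%). The count at E14 to E15.5 was smaller without any single E14 or E15.5 library, as was the share of all genes called. With total counts it was 50 (47 higher and 3 lower), beside 32.7% of all genes higher and 12.3% lower. From E12.5 to P0 total counts gave 58 higher and 12 lower, beside 47.8% and 18.6%.

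Counts by role over the whole span are to be read against 62.1% of all genes called, 30.1% higher and 32% lower, and no difference between roles was tested. Among the 11 complex subunits, 6 rose and 2 fell (72.7% called), and the largest changes were in the paired mTORC2 subunits Protor-1 and Protor-2. Prr5 (Protor-1) rose from 1.54 to 8.83 CPM, a log2 change of 2.34 (adjusted p = 0.000146), and Prr5l (Protor-2) fell from 7.70 to 1.51 CPM, a log2 change of -2.48 (adjusted p = 1.26e-05). Both had moved by E15.5, with log2 changes from E14 of 1.29 (adjusted p = 0.00666) and -1.11 (adjusted p = 0.00125), the former not called without E14 replicate 2 (1.23, adjusted p = 0.0599). Over the span in which Rictor rose by 0.56, these subunits that bind it thus moved in opposite directions.

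In the group of 5 genes around TSC and Rheb, 3 rose over the whole span and 0 fell (60% called), with all 5 fitted above 0. The third riser beside Tsc1 and Tsc2 was Rhebl1, a relative of Rheb, which went from 2.89 to 6.37 CPM (log2 change 1.19, adjusted p = 0.000871) and had a log2 change of 1.08 (adjusted p = 0.00254) from E14 to E15.5. Among the 17 genes of receptors, PI3K and Akt, 6 rose and 5 fell (64.7% called). Sgk1, a kinase that mTORC2 phosphorylates, rose from 8.43 to 58.2 CPM (log2 change 2.82, adjusted p = 1.4e-06), and Irs1, the adaptor of insulin and IGF receptors, fell from 6.85 to 2.68 CPM (log2 change -1.39, adjusted p = 0.000334). From E14 to E15.5 the largest rise in that group was in Pik3r1, a regulatory subunit of PI3K (10.3 to 27.4 CPM, log2 change 1.40, adjusted p = 0.00581), and Irs1 was the largest fall (-0.56, adjusted p = 0.0317), not called without E14 replicate 1 or any single E15.5 or E17 library (0.0542 to 0.164), with DESeq2 (0.106) or with total counts (-0.26, 0.2).

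Of 27 amino acid sensing genes tested, 9 rose and 5 fell over the whole span (51.9% called). Fnip2, a partner of folliculin, rose from 2.67 to 8.14 CPM (log2 change 1.58, adjusted p = 4.89e-05), and Slc38a9, the lysosomal arginine sensor, fell from 1.56 to 0.438 CPM (log2 change -1.59, adjusted p = 0.00382). Slc38a9 was shallow, with a mean of 35 footprints per library at E12.5 and 13 at P0, and its call was lost with sample quality weights (adjusted p = 0.111). At E15.5 the largest changes in that group were a rise of the Rag GTPase gene Rragb by 0.76 and a fall of Sesn2, a leucine sensor, by 0.80 on the log2 scale (adjusted p = 0.00803 and 0.0328). The Rragb call was lost without E14 replicate 1 (adjusted p = 0.0545) or E15.5 replicate 2 (0.0528), and the Sesn2 call without E14 replicate 1, any single E15.5 library or any single E17 library (0.0557 to 0.22), with DESeq2 (0.198) and with total counts (-0.51, 0.114). Of 11 genes for energy and stress inputs, 4 rose and 2 fell (54.5% called), led by the AMPK subunits Prkab2 (4.74 to 21.0 CPM, log2 change 2.12, adjusted p = 7.81e-05) and Prkag1 (18.7 to 12.1 CPM, log2 change -0.66, adjusted p = 0.0017). The Prkag1 change was -0.44 (adjusted p = 0.0156) without P0 replicate 2 and -0.14 (0.387, not called) with total counts. The catalytic AMPK subunit Prkaa2 rose by 0.93 from E14 to E15.5 (adjusted p = 0.00508).

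Of the 16 substrates and outputs, 4 rose and 7 fell over the whole span (68.8% called). Grb10, a receptor adaptor that mTORC1 phosphorylates and an imprinted gene, fell from 380.7 to 28.1 CPM (log2 change -3.78, adjusted p = 4.05e-07), of which a log2 change of -1.49 (adjusted p = 7.63e-05) came between E14 and E15.5. Both 4E-BP genes measured fell over the whole span. Eif4ebp1 went from 7.01 to 2.83 CPM (log2 change -1.44, adjusted p = 0.000176) and Eif4ebp2 from 81.2 to 40.0 CPM (log2 change -1.02, adjusted p = 8.96e-05). Eif4ebp1 had fallen by 0.86 already from E14 to E15.5 (adjusted p = 0.00505), whereas the Eif4ebp2 difference at that step was -0.11 (adjusted p = 0.458) and changed sign with total counts. Eef2k, the kinase that inhibits elongation factor 2 and is itself held back by S6K1, rose from 10.1 to 24.0 CPM (log2 change 1.25, adjusted p = 1.42e-05), and Lpin1, a phosphatidate phosphatase that mTORC1 keeps out of the nucleus, rose by 0.78 from E14 to E15.5 (adjusted p = 0.00248).

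**Figure D4:**
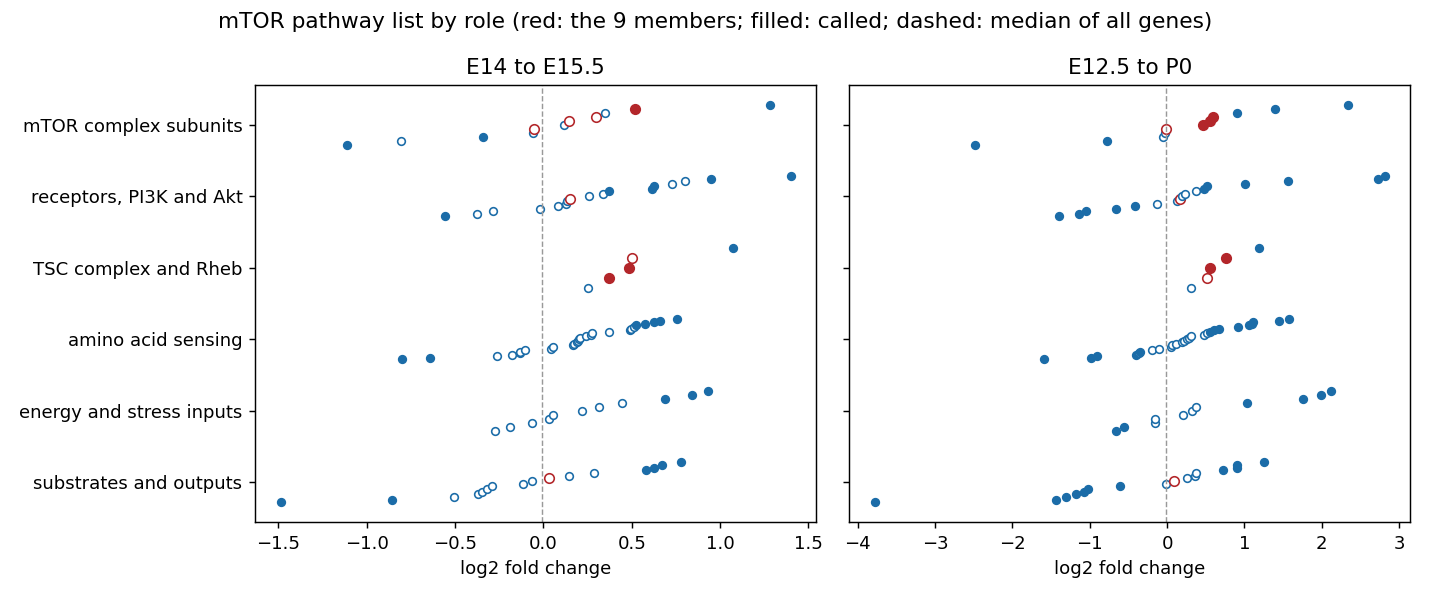
Log2 fold change (horizontal axes) of the tested genes of the pathway list, in rows by role and sorted within a row, from E14 to E15.5 (left) and from E12.5 to P0 (right). Red marks the 9 members and blue the other genes, filled circles are calls, and the dashed line is the median of all genes tested (-0.009 and -0.013). The members lie within the range of the other genes of their groups, and the farthest points are Grb10 on the left of both panels and Sgk1 on the right of the E12.5 to P0 panel.

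The mRNAs most strongly tied to mTORC1 begin with a 5′ terminal oligopyrimidine (TOP) motif. At the RefSeq start sites of GRCm38.p6, a C followed by 4 pyrimidines (C or T), read on the gene's own strand, was found for 0 of the 9 members, for 22.8% of 57 cytosolic ribosomal protein genes with an entry and for 3.01% of all 27025 genes. A match depends on the exact base at which a start is annotated, and its absence says only that these letters are not at that position.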

How the data were processed

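The authors deposited 1 table of whole-number footprint counts per Ensembl gene for 10 Ribo-seq libraries, after adapter trimming, collapse of duplicate reads by molecular identifiers, removal of rRNA and tRNA reads and alignment with STAR to GENCODE mouse sequences, with reads that match several places allowed. The counts were not normalized. Columns were mapped to stages by title. Of 22373 gene identifiers 22274 had a symbol, and members were matched by symbol. The members and lists were chosen with earlier results of these data known.

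The filter kept 13484 genes that reached 32 footprints in the 2 libraries of a stage combined. Following the study, limma-voom (limma 3.58.1, edgeR 4.0.16 TMM factors, R 4.3.3) was fitted with 1 coefficient per stage, p-values were adjusted by Benjamini-Hochberg over all genes kept, and genes were called at adjusted p under 0.05 and a fold of at least 1.25. edgeR's quasi-likelihood test, DESeq2 1.42.0, other scalings, no filter, sample quality weights, the replicate block, the compared stages alone and leaving out each library were alternatives, 18 per gene. Scripts were tested on simulated data. Ratios used 0.5 added to each count and scipy 1.17.1, and 1 of the 5 is not reported here.

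All members were named. Of other pathway genes, those named were the called genes with the largest rise and fall in each role group at E14 to E15.5 and E12.5 to P0, the ratio partners and the 4E-BP genes. Levels were not compared between genes, since no coding lengths were used here. Total counts per library ran from 7544404 to 36129988. The study's methods name DeepShape-prime and tximport for gene-level abundance; whether they made this table is not stated.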

Additional observations from a re-analysis of the deposited data

How the results depend on the processing

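Libraries left out singly gave 0 members called in every case from E12.5 to E14 and from E15.5 to E17, 0 to 4 from E14 to E15.5, 0 to 3 from E17 to P0, 3 to 5 from E12.5 to P0 and 4 to 7 in the F test. For the pathway list the ranges were 0 to 3, 0 to 10, 16 to 41, 7 to 34 and 45 to 62, in the same order of steps. The share of all genes called moved with these counts. At each step the list's largest count came without a P0 library, where the share of all genes called was at or near its largest. The list's smallest counts came in fits where that share was at or near its smallest. The 7 members of the F test likewise came where that share was largest. These ranges therefore do not set the pathway genes apart from other genes. With total counts the members called were 7 (E14 to E15.5), 0 (E17 to P0), 9 (E12.5 to P0) and 9 (F test). Over all genes that scaling called 44.9%, 21.4%, 66.4% and 69.5%, in the same order. The list then had 50 called from E14 to E15.5. The members whose later 6 libraries all exceeded the earlier 4 were 8 with total counts and 5 to 6 without single libraries (chosen after seeing the data). DESeq2 called 1 member from E14 to E15.5, and 29.5% of all genes. Sample quality weights gave 0 members from E17 to P0 (5.18% of all genes) and 3 over the whole span (46.3%). Fitting the compared stages alone gave 0 members from E17 to P0, where it called 0 of 12995 genes, so that 0 says nothing about the members. Over the whole span it gave 1 member, and 45.1% of all genes. The ratio differences ran from -0.256 to -0.115 (Rptor to Rictor), 0.138 to 0.257 (Tsc1 to Tsc2), 0.505 to 0.675 (Rps6kb1 to Rps6kb2) and 0.361 to 0.470 (Akt1 to Akt2) with single libraries left out. Without both P0 libraries they were 0.252 for Tsc1 to Tsc2, then called at 0.0476, and 0.597 (adjusted p = 0.0571) for Rps6kb1 to Rps6kb2, which with 5 counts added was 0.584 (0.0714), all by exact permutation. Signs turned for Mlst8 from E12.5 to P0 (0.009 with DESeq2, 0.512 with total counts, 0.001 with the compared stages alone, -0.037 to 0.015 without single libraries), for Rps6kb1 (-0.127 to 0.258) over the same span without single libraries, and for Akt2 from E14 to E15.5 (-0.083 to 0.048). With total counts they turned for Akt2 (0.274 at E14 to E15.5, 0.111 over the whole span), Rps6kb2 (0.002) and Eif4ebp2 (0.182), both from E14 to E15.5. The labels do not say whether a replicate number marks anything shared between stages. Deviations of same-numbered libraries correlated at -0.682 to 0.267 over 10 pairs of stages, 2 of them over 0.1. These values cannot tell whether libraries shared a batch, since a batch may cross the numbering. With a replicate block, 2 members were called at E14 to E15.5 and 4 over the whole span, the lost ones being Tsc2 (0.375, adjusted p = 0.0544) and Rptor (0.474, adjusted p = 0.0525). In that fit 27 and 48 of the list were called, beside 33.8% and 59.5% of all genes. The cause of these changes was not tested. Among the members, depth limits Rictor most, at 33 to 168 counts per library.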

Other observations

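For each member, the gene whose log2 CPM ran most nearly parallel over the 10 libraries was found among the 9215 genes averaging 100 counts or more, as a description with no test. With so many candidates and 10 libraries that share stage and depth, a high value is the usual outcome. The nearest were Nagk for Tsc2 (Pearson r = 0.997), Pogk for Tsc1 (0.992), Zfp563 for Rictor (0.988), Sin3b for Mtor (0.979), Actr2 for Rheb (0.978), Commd9 for Rptor (0.973) and Snf8 for Akt1 (0.964). The lowest of the 9 were Ndufa5 for Rps6kb1 (0.926) and Tkfc for Mlst8 (0.892), the members with the least change over the stages.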
